A study of Mus musculus with 2 samples.

Results

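The small leucine-rich proteoglycans (SLRPs) are secreted matrix proteins whose protein core is built of repeated leucine-rich stretches. The members described here are decorin (Dcn), lumican (Lum), biglycan (Bgn), fibromodulin (Fmod), asporin (Aspn), osteoglycin (Ogn), prolargin (Prelp), osteomodulin (Omd) and podocan (Podn). They were taken by gene symbol, and all 9 were found among the 32285 genes of the deposited tables. The data are 2 single-cell RNA sequencing libraries of whole mouse uterus, each made from 3 pooled female C57BL/6J mice aged 6 months. One library is titled Prickle1 f/f (control, mice with floxed alleles of the planar cell polarity gene Prickle1) and the other Prickle1 f/f MiC (called cKO in the series' design text). The f/f alleles are therefore shared by both groups. The labels do not explain MiC, name no driver of a deletion, and give the genotype of both libraries as wild-type.

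SLRPs coat collagen fibrils and limit how thick the fibrils grow and how they are spaced. Decorin, biglycan and asporin form the first class of the family, of which decorin and biglycan carry chondroitin or dermatan sulfate chains, while asporin has a run of aspartate in place of a chain. Lumican, fibromodulin, prolargin and osteomodulin form the second class, where keratan sulfate chains are usual, osteoglycin belongs to the third, and podocan to a later, non-canonical class. Several of them also bind growth factors of the TGF-beta family and cell surface receptors. In the uterus, decorin and biglycan are known matrix components of the stroma, the myometrium and the cervix.

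After filtering (at least 1000 unique molecular identifiers, UMIs, at least 500 genes and at most 20% mitochondrial UMIs), 3490 control and 3586 cKO cells remained, with a median of 4953 and 4903 UMIs. Clusters were named "X-like" from markers that include no SLRP gene, and 6 cell barcodes occurred in both libraries. No cluster was named pericyte-like or blood endothelium-like. The counts of Prickle1 did not show a loss under the cKO label: it stood at 2.56 CPM (counts scaled to a total of 1e+06) over all control cells and 9.03 CPM over all cKO cells, and at 14.7 and 24.6 CPM in smooth muscle-like cells. In fibroblast-like cells it was at 4.31 and 8.95 CPM. Of the named classes, only lymphatic endothelium-like cells had less in the cKO library, 17.5 and 11.6 CPM (8 and 16 UMIs). The all-cell levels are not matched for cell make-up, since epithelium-like cells, at 0.901 and 2.97 CPM, were 37.5% of control and 3.01% of cKO cells. The labels do not give the deleted exons, so counts from the 3-prime end may lie outside them, and directions below rest on the library labels. With 1 library per group there is no replicate error and no test. All intervals are 95%, and they cover counting error only.

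Most SLRP genes stand in 3 genomic groups on the mouse genome GRCm38 (mm10). Dcn (chr10:97479609-97518143, plus strand) and Lum (chr10:97565128-97572703, plus strand) are 46984 bases apart. Prelp (chr1:133910304-133921414, minus strand) and Fmod (chr1:134037254-134048277, plus strand) are 115839 bases apart. Aspn (chr13:49544443-49567565), Omd (chr13:49582462-49592822) and Ogn (chr13:49608046-49624501) follow each other on the plus strand of chromosome 13, with 14896 bases between Aspn and Omd and 15223 between Omd and Ogn. Another family gene, Ecm2 (chr13:49504810-49532789, plus strand), lies 11653 bases before Aspn. Bgn is on the X chromosome (chrX:73483602-73495933, plus strand) and Podn on chromosome 4 (chr4:108014791-108096445, minus strand).

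The start regions of the chromosome 13 group are shown because Aspn and Ogn were the members with higher levels in smooth muscle-like than in fibroblast-like cells, while Omd between them was barely counted. Each sequence is the 250 bases before the RefSeq start on GRCm38.p6, plus strand, 5′ to 3′, and capitals mark a match to a searched motif. The windows are chr13:49544193-49544442 for Aspn, chr13:49582212-49582461 for Omd and chr13:49607765-49608014 for Ogn.
Aspn: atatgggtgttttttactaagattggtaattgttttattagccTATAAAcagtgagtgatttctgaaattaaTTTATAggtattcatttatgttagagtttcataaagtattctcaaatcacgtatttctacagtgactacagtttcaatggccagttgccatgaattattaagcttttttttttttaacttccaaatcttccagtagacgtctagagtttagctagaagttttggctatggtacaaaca
Omd: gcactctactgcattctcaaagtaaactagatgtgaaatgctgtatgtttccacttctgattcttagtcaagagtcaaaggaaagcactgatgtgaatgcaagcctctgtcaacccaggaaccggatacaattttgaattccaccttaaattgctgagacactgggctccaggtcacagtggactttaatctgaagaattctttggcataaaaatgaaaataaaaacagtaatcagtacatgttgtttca
Ogn: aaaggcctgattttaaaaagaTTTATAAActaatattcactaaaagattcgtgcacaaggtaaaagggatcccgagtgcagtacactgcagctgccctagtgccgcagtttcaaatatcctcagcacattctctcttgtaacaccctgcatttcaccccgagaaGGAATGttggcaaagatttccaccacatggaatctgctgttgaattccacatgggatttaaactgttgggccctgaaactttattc

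Motifs were searched on both strands: the CArG box that serum response factor binds, the TATA box letters TATAAA, the TEAD motif CATTCC, the GATA motif GATAAG and the E-box CACGTG. The Aspn window held TATAAA at -207 and, on the reverse strand, at -178. The Ogn window held overlapping TATAAA matches at -229 (reverse strand) and -227, and CATTCC at -86 on the reverse strand. Over 32851 RefSeq windows of the same length, 12.4% held TATAAA and 12.6% held CATTCC. The CArG box was in 1.47% of all windows and the GATA motif and the E-box in 6.55% and 6.02%. None of these 5 motifs was in the Omd window, and no CArG box was in any of the 7 members' windows searched. Of those windows, 30% of the bases of Aspn, 42% of Ogn and 38.4% of Omd were G or C. A match is a description of letters and not a binding site.

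The members differed in how their UMIs were distributed over the cell classes. Fibroblast-like cells held 81.8% of all Dcn UMIs counted in control cells and 88.0% of those in cKO cells, and 89.7% and 92.2% of the Lum UMIs. Bgn was distributed in the same way, with 82.9% and 93.2%. Fmod was not: mesothelium-like cells, 81 control and 31 cKO cells of the uterine surface lining, held 63.3% and 42.1% of its 49 and 76 UMIs. Fibroblast-like cells held 32.7% and 51.3% of them, the larger part in the cKO library. Aspn had 21.6% and 21.4% of its UMIs in smooth muscle-like cells, and Ogn 9.56% and 13.4%, against 0.733% and 0.802% for Dcn. Podn was counted 112 and 117 times in all cells, with 27.7% and 16.2% in mesothelium-like cells and none in smooth muscle-like cells.

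**Figure D1:**
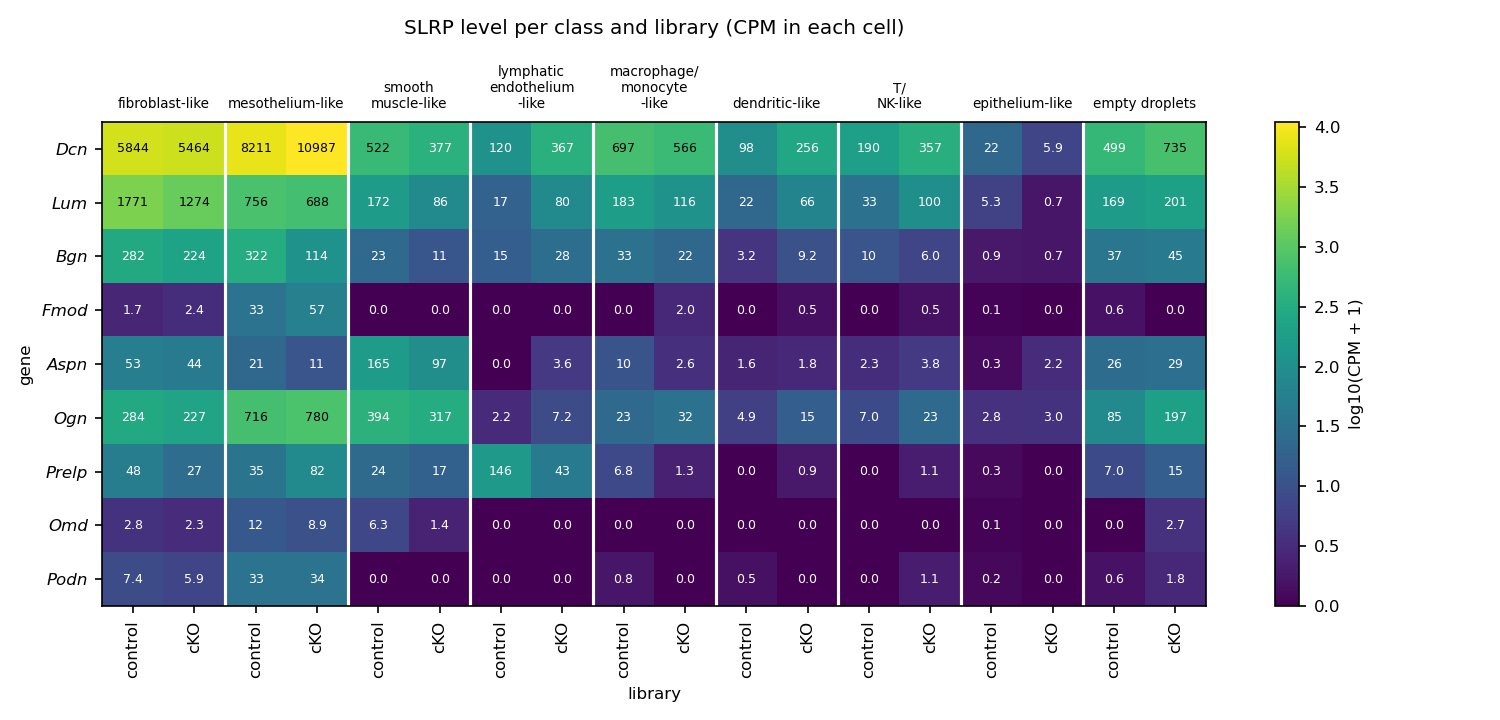
Level of each SLRP gene (rows) in 8 cell classes and in empty droplets (column pairs, control left and cKO right). The number in each box is CPM and the colour is log10(CPM + 1). Dcn, Lum and Bgn are highest in fibroblast-like and mesothelium-like cells, Aspn in smooth muscle-like cells (165 and 97 CPM), Prelp in lymphatic endothelium-like cells of the control library (146 CPM), and Fmod and Podn in mesothelium-like cells.

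Within the family's own UMIs the classes also differed. Each UMI is a molecule caught at its 3-prime end, so these are shares of molecules and need no correction for gene length. Dcn made up 70.5% of the SLRP UMIs of control fibroblast-like cells and 75.1% of those of cKO fibroblast-like cells. Among the SLRP UMIs of smooth muscle-like cells it made up 40.0% and 41.6%, Ogn 30.2% and 35.0%, Aspn 12.6% and 10.7%, and Lum 13.2% and 9.46%. In empty droplets, which hold free RNA, Dcn made up 60.6% and 59.9% and Ogn 10.3% and 16.1%. The smooth muscle-like mixture was thus richer in Ogn and Aspn than either the fibroblast-like cells or the free RNA.

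**Figure D2:**
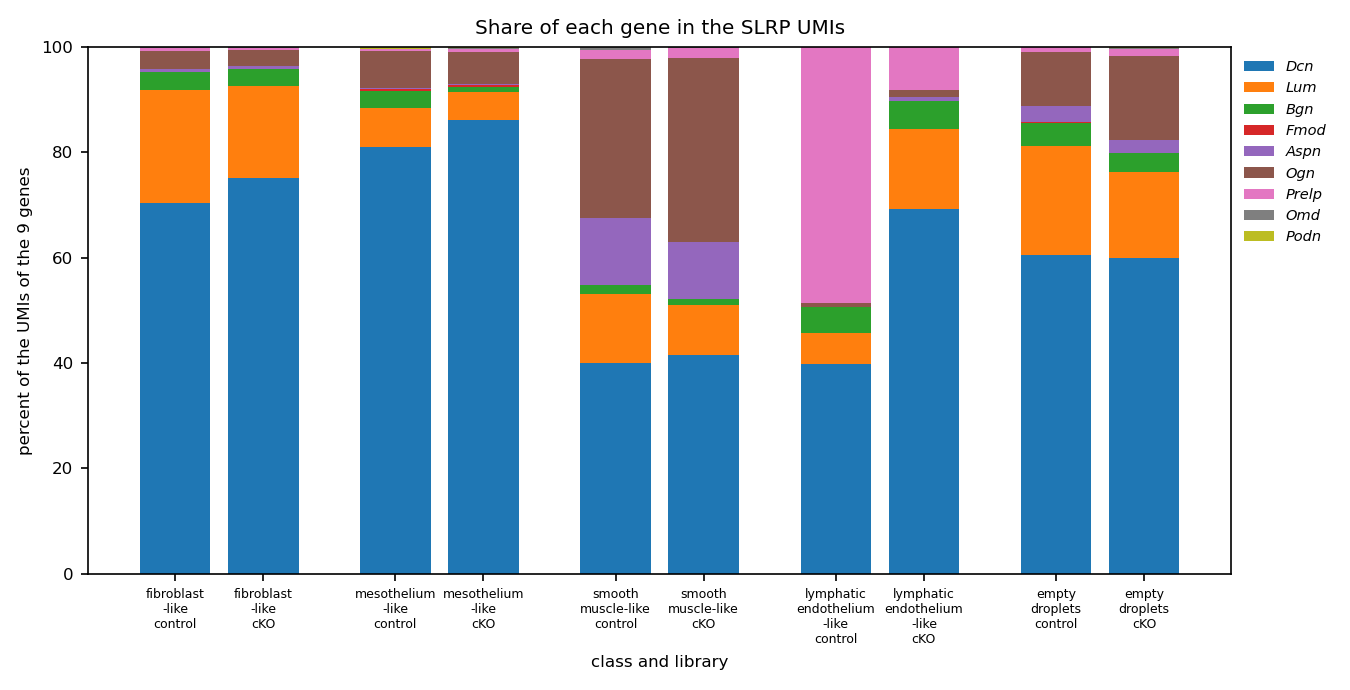
Share of each gene in the UMIs of the 9 SLRP genes (y axis, percent), by class and library (x axis), with empty droplets at the right. Ogn (brown) and Aspn (purple) take a larger part of the smooth muscle-like bars than of the fibroblast-like bars, and Prelp (pink) takes a large part of the lymphatic endothelium-like control bar.

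Fibroblast-like cells numbered 848 in the control and 1293 in the cKO library, in 6 clusters. Of 9 fibroblast markers, 6 were found in at least 25% of the cells of each library, and their summed level was 2827 and 2920 CPM. Dcn stood at 5844 CPM (5795 to 5893) in control and 5464 CPM (5427 to 5500) in cKO cells. Lum stood at 1771 and 1274 CPM. Both were lower in the cKO library beyond counting error, with log2 ratios of -0.10 (-0.11 to -0.08) for Dcn and -0.47 (-0.50 to -0.45) for Lum, each after adding 5 CPM.

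The other counted members were lower too. Bgn was at 282 CPM in control and 224 CPM in cKO cells (log2 ratio -0.33; -0.41 to -0.26). Ogn was at 284 and 227 CPM (-0.32; -0.39 to -0.25). Aspn, which binds collagen and TGF-beta, was at 53.0 and 44.2 CPM (-0.24; -0.43 to -0.09). Prelp, which anchors basement membranes to connective tissue, showed the lowest ratio of the 6, at 48.0 and 27.1 CPM (-0.72; -1.02 to -0.63).

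Fmod (1.68 and 2.44 CPM), Omd (2.84 and 2.25 CPM) and Podn (7.36 and 5.88 CPM) were under the 10 CPM that a gene needed in either library to be compared, and the interval of each ratio included no difference. None of the 6 compared members was past a 2-fold difference. Over all 8133 genes compared in the class, 1.7% were at least 2-fold higher in the cKO library and 0.873% at least 2-fold lower. The members' median log2 ratio was -0.32 and that of all compared genes was 0.10. The summed level of the 9 members was 8293 CPM in control and 7270 CPM in cKO fibroblast-like cells, a log2 ratio of -0.19 (-0.20 to -0.18).

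The direction of Dcn differed among the clusters, being higher in the cKO library in 4 of the 6 and lower in clusters 21 and 22. In cluster 4, led by Ptx3 and the hyaluronan synthase Has2 (198 control and 520 cKO cells), Dcn was at 6613 and 7669 CPM (log2 ratio 0.21; 0.19 to 0.24). In cluster 5, led by the Wnt antagonist Frzb and the BMP antagonist Nog (159 and 168 cells), it was at 4103 and 4895 CPM (0.25; 0.22 to 0.29). In cluster 15, led by C1qtnf3 and Ms4a4d (256 and 243 cells), it was at 7234 and 8156 CPM (0.17; 0.14 to 0.21).

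The fourth, cluster 9 (211 and 62 cells), had few UMIs per cell, at a median of 1776 and 1605, and was led by Col1a2 and Col1a1. Its Dcn level was 3040 CPM in the control and 4049 CPM in the cKO library (0.41; 0.27 to 0.56). The summed SLRP level was higher in the cKO library in all 4 of these clusters, with log2 ratios of 0.17, 0.22, 0.23 and 0.10 in clusters 4, 5, 9 and 15.

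Clusters 21 and 22, the remaining pair, were made up nearly entirely of cKO cells, in which SLRP levels were low. Cluster 21, led by the retinoic acid synthesis gene Aldh1a2, Scube1 and Dio2, had 17 control and 227 cKO cells, which were 2.00% and 17.6% of the class. Cluster 22, led by Hsd11b2 and Slc26a7, had 7 and 73 cells, 0.825% and 5.65% of the class. Dcn was at 3645 CPM in control and 1770 CPM in cKO cells of cluster 21 (log2 ratio -1.04; -1.14 to -0.95), and at 6639 and 2534 CPM in cluster 22 (-1.39; -1.54 to -1.23). These cKO levels were below the cKO level of every other fibroblast-like cluster, whereas the few control cells had more. The summed SLRP level had log2 ratios of -0.96 in cluster 21 and -1.43 in cluster 22. Over 90% of each cluster's cells came from 1 library, so a feature of that library and a cell type cannot be told apart for them.

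Lum was much lower in cluster 21 than in the shared clusters. It was at 194 CPM (17 cells) and 192 CPM (227 cells) there, against 1460 to 2521 CPM in control and 1501 to 2509 CPM in cKO cells of clusters 4, 5, 9 and 15. Prelp was at 4.35 CPM and Aspn at 5.23 CPM in the cKO cells of cluster 21. Podn was counted at 0.218 CPM there. After each cell was thinned to 1000 UMIs, the mean number of SLRP genes found per cell was 1.05 in cKO cells of cluster 21 and 2.24 in cKO cells of cluster 4, and no SLRP gene was found in 23.8% of the former.

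Without clusters 21 and 22, the log2 ratio of the summed level in fibroblast-like cells was 0.19 in place of -0.19. Dcn then had 0.28, Aspn 0.22, Ogn 0.01, Lum -0.05, Bgn -0.12 and Prelp -0.36. Without cluster 21 alone, an alternative chosen after seeing the data, the summed ratio was 0.15. The class total, Dcn, Aspn and Ogn thus changed sign without these clusters, and Lum, Bgn and Prelp did not. Dcn also had a positive ratio, 0.14, with all clusters kept and cells thinned to 1000 UMIs.

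**Figure D3:**
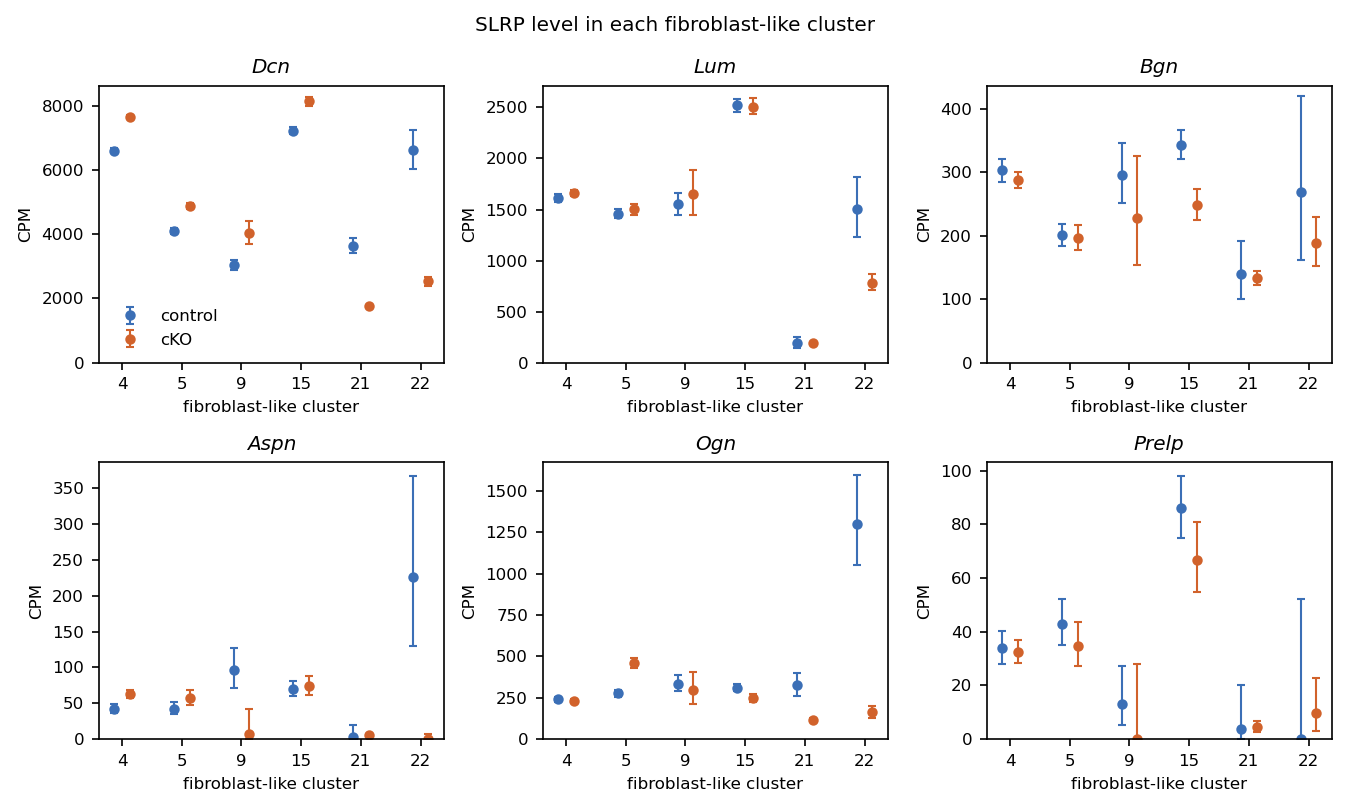
Level in CPM (y axes, each from 0) of 6 SLRP genes in the 6 fibroblast-like clusters (x axes), control in blue and cKO in orange, with 95% counting intervals. Dcn is higher in cKO in clusters 4, 5, 9 and 15, and Lum is near 190 CPM in both libraries in cluster 21, where the control library has 17 cells; in cluster 22 it has 7.

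Other members varied among the shared clusters. Ogn was higher in the cKO library in cluster 5, at 276 and 461 CPM (log2 ratio 0.73; 0.59 to 0.88), and lower in cluster 15, at 310 and 249 CPM (-0.31; -0.50 to -0.14). Aspn was higher in the cKO cells of cluster 4, at 42.4 and 63.0 CPM (0.52; 0.30 to 0.85). In cluster 9 Aspn was counted 51 times in control and once in cKO cells, 96.2 and 7.60 CPM. The ratio of these levels therefore rests on a single cKO UMI.

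Bgn was lower in the cKO cells of cluster 15, at 343 and 248 CPM (-0.46; -0.64 to -0.29), and differed within counting error in clusters 4, 5, 9 and 21. Prelp was highest in cluster 15, at 86.0 and 66.9 CPM (-0.34; -0.71 to -0.02). Lum had log2 ratios of 0.09 (-0.13 to 0.31) in cluster 9 and -0.01 (-0.06 to 0.05) in cluster 15, both with intervals that include no difference. In clusters 4 and 5 its ratios were 0.05 (0.00 to 0.09) and 0.04 (-0.03 to 0.11). The lower Lum of the whole class was therefore not seen inside these 4 clusters.

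Single cells mostly carried both leading members. Dcn was found in 95.8% of control and 96.9% of cKO fibroblast-like cells (median depths of 9425 and 10307 UMIs), and in 91.4% and 89.1% after thinning to 1000 UMIs. Lum was found in 90.7% and 86.0%, and in 69.7% and 59.2% after thinning. Thinned cells with both made up 66.4% and 56.8%, and cells with Lum but no Dcn 3.30% and 2.40%. In epithelium-like cells, taken as a type that should lack decorin, 5.65% and 6.48% of cells had a Dcn UMI at median depths of 4371 and 4078.5.

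Smooth muscle-like cells, 311 control and 683 cKO, carried SLRP transcripts with a different profile. All 8 smooth muscle markers were found in at least 25% of the cells of each library. Aspn was at 165 CPM (157 UMIs) in control and 97.1 CPM (205 UMIs) in cKO cells, 3.11 times (2.58 to 3.72) and 2.20 times (1.87 to 2.57) its fibroblast-like level. Ogn was at 394 CPM (376 UMIs) and 317 CPM (670 UMIs), 1.39 times (1.24 to 1.55) and 1.40 times (1.28 to 1.52) the fibroblast-like level. Aspn and Ogn were thus the 2 counted members above their fibroblast-like level in both libraries.

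Dcn stood at 522 CPM (498 UMIs) in control and 377 CPM (796 UMIs) in cKO smooth muscle-like cells, 0.0893 and 0.0690 of the fibroblast-like level. Lum stood at 172 and 85.8 CPM, and Bgn at 23.1 CPM (22 UMIs) and 10.9 CPM (23 UMIs). Prelp stood at 24.1 and 17.1 CPM. Omd was counted 6 and 3 times. Fmod and Podn were counted 0 times in both libraries, which allows up to 3.14 CPM in control and 1.42 CPM in cKO cells (3 counts of each library's total).

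All 6 members compared in this class were lower in the cKO library. The log2 ratios were -0.96 for Lum (-1.32 to -0.69), -0.82 for Bgn (-1.99 to -0.17), -0.73 for Aspn (-1.07 to -0.45), -0.46 for Dcn (-0.63 to -0.30) and -0.31 for Ogn (-0.50 to -0.13). For Prelp the ratio was -0.40, with an interval of -1.29 to 0.32 that includes no difference. None was past 2-fold. Over all 8680 genes compared in the class, 3.7% were at least 2-fold higher in the cKO library and 2% at least 2-fold lower. The members' median was -0.60 and that of all compared genes 0.20. The summed level was 1306 and 907 CPM, a log2 ratio of -0.52 (-0.63 to -0.42).

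**Figure D4:**
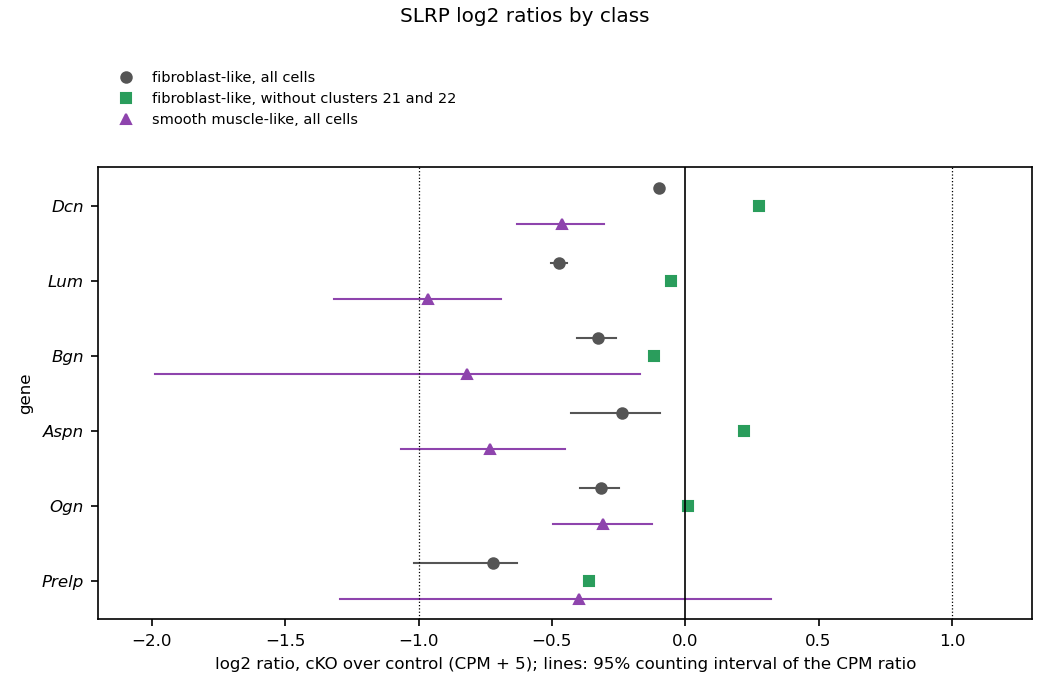
Log2 ratio of cKO over control (x axis, 5 CPM added) for 6 SLRP genes (y axis) in fibroblast-like cells (grey circles), the same class without clusters 21 and 22 (green squares) and smooth muscle-like cells (purple triangles). Lines are 95% counting intervals of the CPM ratio, and dotted lines mark a 2-fold difference. Dcn lies at -0.10, 0.28 and -0.46 in the 3 settings.

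The class held 2 clusters, and members differed between them. Cluster 10 (195 control and 328 cKO cells, median 1524 and 1352.5 UMIs) was led by the contractile genes Actg2, Cnn1 and Acta2. Lum there was at 238 and 87.5 CPM (log2 ratio -1.39; -1.99 to -0.91), Aspn at 174 and 62.8 CPM (-1.40; -2.13 to -0.84) and Ogn at 594 and 352 CPM (-0.75; -1.05 to -0.47). Dcn was at 511 and 510 CPM in that cluster, a log2 ratio of -0.00 (-0.28 to 0.27).

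Cluster 14 (116 and 355 cells, median 4027.5 and 3808 UMIs) had Myh11 and Fgfr2 among its leading genes. Dcn was at 529 and 333 CPM there (-0.66; -0.87 to -0.46) and Aspn at 159 and 109 CPM (-0.53; -0.92 to -0.17). Ogn was at 272 and 306 CPM (0.17; -0.09 to 0.44). Lum (-0.60) and Aspn were therefore lower in the cKO library in both clusters, Dcn in cluster 14 and Ogn in cluster 10. The difference between the clusters was not tested.

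Several other values moved with these ratios. The summed smooth muscle markers were at 11254 CPM in control and 7256 CPM in cKO cells. Of the 8 markers compared, 6 were lower in the cKO library and 2 higher, with a median log2 ratio of -0.29. Acta2 (-1.08) and Actg2 (-1.53) were the 2 past 2-fold lower. The summed dissociation-response genes, early genes such as Fos and Egr1 that handling induces, were at 14950 and 9663 CPM, and 12 of 13 were lower in the cKO library. Erythroid markers summed to 47.2 and 896 CPM, epithelium markers to 114 and 16.6 CPM, and lymphatic endothelium markers to 31.4 and 80.1 CPM, with 1 and 0 of 4, 0 of 7, and 4 and 2 of 6 at 0. The part of any of these in the SLRP ratios was not tested.

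Markers of fibroblasts summed to 143 CPM in control and 153 CPM in cKO smooth muscle-like cells, with 2 and 1 of 9 at 0. In fibroblast-like cells they summed to 2827 and 2920 CPM. The sums hide opposite directions in smooth muscle-like cells. Of 6 fibroblast markers compared there, 3 were higher in the cKO library, 1 of them past 2-fold. The other 3 were lower, 2 of them past 2-fold, and the median log2 ratio was -0.31. Of the 6 mesothelium markers, 4 were at 0 in both libraries, and Wt1 alone made up nearly all of the summed 247 and 330 CPM. In cells with no fibroblast marker UMI (250 control and 494 cKO cells), Aspn was at 172 and 81.3 CPM, Ogn at 403 and 330 CPM, Lum at 172 and 81.3 CPM and Dcn at 493 and 386 CPM. These cells were most of the 311 control and 683 cKO cells, so nearness to the whole class cannot decide the part of fibroblast RNA. Their median depths were 1736.5 and 1760.5 UMIs, beside 3212 and 3289 in cells with a marker UMI. The latter had Aspn at 145 and 123 CPM and Ogn at 369.7 and 297 CPM. Lum was there at 172 and 92.96 CPM and Dcn at 598 and 363 CPM. Without a marker UMI, the log2 ratio of Aspn was -1.04, beside -0.73 in the class. Those of Lum, Ogn and Dcn were -1.04, -0.29 and -0.35, beside -0.96, -0.31 and -0.46.

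Free RNA was compared as well. In empty droplets Dcn was at 499 and 735 CPM, Lum at 169 and 201, Ogn at 84.6 and 197, and Aspn at 25.5 and 28.9 CPM. The Dcn and Lum levels of control smooth muscle-like cells were near those of empty droplets, and those of cKO cells were below them, whereas Ogn and Aspn were above them in both libraries. These levels do not give the share of a cell's UMIs that is free RNA. For scale, 5% of the empty-droplet level is 24.95 and 36.73 CPM for Dcn, beside 522 and 377 CPM in smooth muscle-like cells. For Lum it is 8.46 and 10.03 CPM, beside 172 and 85.8 CPM. With free RNA subtracted, the log2 ratios in this class were -0.54 for Dcn and -1.06 for Lum. At least 1 Dcn UMI was found in 49.5% and 44.2% of smooth muscle-like cells, at median depths of 1886 and 2016 UMIs. In mast-like cells, at median depths of 1413.5 and 1582 UMIs, the share was 4.76% and 7.55%. By level the contrast was smaller, with mast-like Dcn at 209 CPM (15 UMIs) in control and 474 CPM (59 UMIs) in cKO cells. The latter was above the 377 CPM of cKO smooth muscle-like cells.

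Ogn was found in 52.7% and 44.4% of smooth muscle-like cells and in 4.76% and 5.66% of mast-like cells. Aspn was found in 25.7% and 17.7% of smooth muscle-like cells. Thinned to 1000 UMIs, 32.8% and 24.9% of smooth muscle-like cells had Ogn, 15.4% and 6.88% had Aspn, and 16.1% and 16.4% had Ogn without Dcn. Ogn without Dcn was rare among thinned fibroblast-like cells, at 0.943% and 0.619%. The 5% of smooth muscle-like cells that had most of a gene held 46.4% and 42.2% of the Dcn UMIs, 43.3% and 66.9% of Lum, 51.6% and 53.7% of Aspn, and 27.1% and 31.6% of Ogn.

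Mesothelium-like cells (81 control and 31 cKO) had Dcn at 8211 and 10987 CPM, above the fibroblast-like level by 1.41 times (1.37 to 1.44) and 2.01 times (1.96 to 2.06). The log2 ratio between the libraries was 0.42 (0.37 to 0.47). Fmod, which binds the same collagen region as lumican, was at 33.1 CPM (31 UMIs) and 57.2 CPM (32 UMIs), 19.7 times (10.4 to 38.5) and 23.4 times (14.2 to 38.4) the fibroblast-like level. Podn was at 33.1 and 33.9 CPM, 4.50 and 5.77 times that level. Fmod and Podn were thus higher per UMI in the lining cells than in the stroma in both libraries. Of the Fmod UMIs, 54.8% lay in 5 of 81 control cells and 46.9% in 2 of 31 cKO cells, 11 of the latter in a single cell. The same numbers of cells held 41.9% and 36.8% of the Podn UMIs. Omd, with 11 and 5 UMIs, stood at 4.14 times (1.85 to 8.62) and 3.96 times (1.21 to 10.1) its fibroblast-like level.

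Ogn was also above the fibroblast-like level in this class, at 716 and 780 CPM, 2.52 and 3.43 times. Lum was below it, at 756 and 688 CPM, 0.427 and 0.540 times. Bgn was at 322 CPM (301 UMIs) in control and 114 CPM (64 UMIs) in cKO cells, a log2 ratio of -1.45 (-1.91 to -1.10). Prelp was at 35.3 and 82.2 CPM (33 and 46 UMIs), a log2 ratio of 1.11 (0.54 to 1.91). Of the 9 members compared, Prelp was thus past 2-fold higher and Bgn past 2-fold lower. Of the Prelp UMIs, 66.7% lay in 5 of 81 control cells and 50% in 2 of 31 cKO cells, 18 of the latter in a single cell.

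Over the 9175 genes compared in mesothelium-like cells, 5.44% were at least 2-fold higher in the cKO library and 3.15% at least 2-fold lower. Of the members, 5 were higher and 4 lower, with a median of 0.03 beside 0.06 for all genes. Aspn was counted 20 and 6 times and Omd 11 and 5 times. Dissociation-response genes summed to 11581 and 16809 CPM in these cells, and fibroblast markers to 771 and 1352 CPM with 1 of 9 at 0. Their part in the ratios was not tested.

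Lymphatic endothelium-like cells (31 control and 102 cKO, named from Prox1, Lyve1, Mmrn1 and related markers) had Prelp as the member found in most control cells. It was at 146 CPM (67 UMIs) in control and 43.5 CPM (60 UMIs) in cKO cells, a log2 ratio of -1.64 (-2.28 to -1.23). It was found in 58.1% of control and 21.6% of cKO cells, and Bgn in 12.9% and 22.5%. In epithelium-like cells 0.382% of control cells had a Prelp UMI, at 4371 UMIs beside 5617 in the lymphatic endothelium-like cells. In control cells, Prelp stood at 3.05 times (2.32 to 3.95) its fibroblast-like level, and in cKO cells at 1.60 times (1.20 to 2.10).

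Dcn in this class was at 120 and 367 CPM and Lum at 17.5 and 80.4 CPM, but 98.2% and 98.6% of the Dcn UMIs lay in 2 control and 6 cKO cells. Bgn was at 15.3 and 28.2 CPM. Of the 4 members compared, Dcn and Lum were past 2-fold higher and Prelp past 2-fold lower. Over the 8487 genes compared, 8.78% were at least 2-fold higher in the cKO library and 8.19% at least 2-fold lower. The Prelp UMIs were spread more widely, with 44.8% and 63.3% in the same number of top cells. The summed lymphatic endothelium markers were at 11517 and 5862 CPM. Dissociation-response genes summed to 7717 and 11852 CPM, with 12 of 13 higher in the cKO library, dendritic markers to 19.6 and 355 CPM (4 and 2 of 7 at 0) and T or NK markers to 30.6 and 157 CPM (6 and 1 of 7 at 0). Their part in the Prelp ratio was not tested.

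In immune classes most Dcn UMIs sat in few cells. Dcn was at 697 and 566 CPM in macrophage or monocyte-like cells, with 96.1% and 97.8% of its UMIs in the 5% of cells that had most. In T or NK-like cells it was at 190 and 357 CPM, with 100% and 99.4% in the top 5%. The median cell had 0 Dcn UMIs in both classes, against 44 and 52 in fibroblast-like cells. Dendritic-like cells had 97.8 and 256 CPM, with 98.3% and 97.8% in the top 5%, and epithelium-like cells 22.2 and 5.95 CPM.

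Doublets could remain in these data, since the caller marked 0.0565% of cells. In T or NK-like cluster 8 Dcn was at 14.5 and 31.2 CPM, 2.91% and 4.25% of its level in empty droplets. In epithelium-like cluster 7 it was at 6.09 and 4.87 CPM, 1.22% and 0.663% of that level. The other T or NK-like cluster, 18, had far more Dcn, at 353 and 900 CPM, beside 499 and 735 CPM in empty droplets. Among macrophage or monocyte-like control cells the highest Dcn count in a cell was 347, and among epithelium-like cKO cells it was 2, where 8 Dcn UMIs were counted in all.

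Over clusters split by library, members fell into different neighbourhoods. Pearson's r of log2(CPM + 5) over 41 cluster and library sums of at least 20 cells, ranked among 14016 genes, describes the likeness; the points share 2 libraries and differ in depth. The gene most like Dcn was Lum (r = 0.96), followed by C1s1 (0.95), a complement protease gene, and Mgp (0.95), which codes for matrix Gla protein. Bgn was most like C1s1 (0.96), Aebp1 (0.94) and C1ra (0.94). Lum was next most like Mgp (0.95) and Sparc (0.94), a collagen-binding matrix protein.

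The pattern of Aspn was closest to that of Vstm2b (0.90), Pi15 (0.89) and Jph2 (0.87), which codes for junctophilin, a protein of muscle membrane junctions. Ogn was closest to Twist1 (0.93), Rarres2 (0.93) and Wt1 (0.92), transcription factor genes of mesenchyme in the case of Twist1 and Wt1. Among the neighbours on chromosome 13, r was 0.80 between Aspn and Ogn, 0.70 between Ogn and Omd and 0.59 between Aspn and Omd. Dcn and Aspn, of the same family class, had r = 0.59.

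Fmod was closest to Avpr1a (0.94), a vasopressin receptor gene, Sox6 (0.94) and Ccbe1 (0.93). Podn was closest to Cpz (0.90), C2 (0.88) and Gpc3 (0.86), Omd to Hoxc9 (0.87), C1qtnf7 (0.86) and Fam180a (0.85), and Prelp to Lama4 (0.85), Zfpm2 (0.84) and Ecm2 (0.84). Prelp had the lowest best match of the 9 members. Among the sums used, Fmod reached 10 CPM only in mesothelium-like cluster 3, with 31 control and 32 cKO UMIs. Omd reached it only in the control sum of that cluster, with 11 UMIs. The r values of Fmod and Omd therefore rest on few sums and few UMIs.

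Of 9 further SLRP family genes, few were counted. Ecm2 was the 1 compared in fibroblast-like cells, at 35.5 and 27.2 CPM (log2 ratio -0.33; -0.59 to -0.18). Ecm2 in smooth muscle-like cells was at 16.8 and 10.9 CPM and Optc, opticin, at 16.8 CPM (16 UMIs) and 6.63 CPM (14 UMIs), a log2 ratio of -0.90. Both of the compared family genes were lower in the cKO library in that class, as were the 6 members.

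Of all compared genes, 5293 of 8133 were higher in the cKO library in fibroblast-like cells and 5777 of 8680 in smooth muscle-like cells, which is the background for the lists of partner genes. Among genes that build the glycosaminoglycan chains of SLRPs, in fibroblast-like cells 14 of 16 compared were higher in the cKO library and 2 lower, with a median log2 ratio of 0.24 beside 0.10 for all genes, and none was past 2-fold. Chsy1, a chondroitin synthase, was at 39.8 and 71.0 CPM (0.76) and the sulfotransferase gene Chst13 at 6.52 and 12.9 CPM (0.64), while Chst2 (-0.34) and Chst15 (-0.28) were lowest. Of 12 compared in smooth muscle-like cells, 9 were higher and 3 lower, with a median of 0.41 beside 0.20 and none past 2-fold. There Chsy1 was counted 21 and 96 times (0.90) and B3galt6, an enzyme of the chain's linker, at 4.19 and 12.8 CPM (0.95). Dsel, a dermatan sulfate epimerase gene, was at 32.5 and 16.6 CPM (-0.80), and B3gat3 had -0.28. Of 17 compared in lymphatic endothelium-like cells, 8 were higher and 9 lower (median -0.30 beside -0.0056 for all genes). Among these, 2 were past 2-fold higher and 3 past 2-fold lower, beside 8.78% and 8.19% of all 8487 genes compared. Of those 8487 genes, 4153 were higher in the cKO library.

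Collagens that SLRPs bind were split by class. In fibroblast-like cells 6 of 10 were higher and 4 lower (median 0.08 beside 0.10 for all genes), with Col6a2 (0.52) and Col6a3 (0.48) highest and Col1a2 (-0.26) and Col3a1 (-0.11) lowest. Of 9 compared in smooth muscle-like cells, 8 were lower (median -0.21 beside 0.20). Col3a1 was there past 2-fold lower, at 115 and 54.0 CPM (-1.03; -1.48 to -0.70), and Col1a2 was at 261 and 132 CPM (-0.96). Col5a2 (-0.01) and Col5a1 (0.07) were the highest.

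Proteases that cut SLRPs or their propeptides included the lowest ratio of any listed gene in fibroblast-like cells. Mmp3, stromelysin, was at 873 and 270 CPM (log2 ratio -1.68; -1.75 to -1.64), and the gelatinase gene Mmp2 at 501 and 300 CPM (-0.73). Adamts4 (0.39) and Bmp1 (0.19), which trims SLRP propeptides, were higher, and 2 of 6 were higher and 4 lower. Of 4 compared in smooth muscle-like cells, 1 was higher and 3 lower. Adamts5 was past 2-fold higher there, counted 2 times in control and 43 times in cKO cells, and Mmp3 (-0.53), Mmp14 (-0.23) and Bmp1 (-0.19) were lower.

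Receptors and growth factors that SLRP proteins bind showed no common direction. In fibroblast-like cells 6 of 10 were higher and 4 lower (median 0.04 beside 0.10 for all genes), with Tgfb1 (0.58) and Bmp2 (0.51) highest and Tlr2 (-0.53) and Tgfb2 (-0.52) lowest. In smooth muscle-like cells 6 of 10 were higher and 4 lower (median 0.07 beside 0.20). Bmp4 was there at 74.4 and 147 CPM (0.94) and the growth factor receptor gene Igf1r had 0.54, while Tgfb1 had -0.82 and Lrp1, an endocytic receptor that takes up decorin, -0.68.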

How the data were processed

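The authors deposited, for each library, unfiltered UMI counts, 1 value for each gene in each barcode; per the file headers the software was Cell Ranger 4. The submitters' processing notes name Cell Ranger 6.1.1 and the build mm10, and the annotation release is not given in the sources used here. Of 32285 gene identifiers, 32158 (99.6%) occur in GENCODE vM21, which gave the coordinates. Per the labels' protocols, minced uterus was digested with collagenase and loaded on a droplet kit that reads 3-prime ends. The libraries held 45035801 (control) and 34261441 (cKO) UMIs, of which 83.4% and 85.7% lay in cells.

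Cells of both libraries were clustered with scanpy 1.11.5 under Python 3.11.15 (10000 UMIs per cell, log scale, 2000 variable genes without the SLRP genes and the listed partner genes, 30 principal components, 15 neighbours, Leiden resolution 1). A cluster took a class name when at least 3 of its markers had a UMI in at least 25% of its cells and were at least 2 times the median cluster. It stayed unnamed where another class's markers led it, where its depth was under 0.333 of its libraries' median and no own marker was among its 10 leading genes, or where it was over 2 times as deep with at least 50% of another class's markers. Unnamed clusters held 4.90% of control and 10.3% of cKO cells. Scrublet called 4 of 7076 cells (0.0565%), too few for the caller to have worked, so doublets could remain.

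Within each class the UMIs of a library were added up, scaled to CPM and compared as log2 ratios after adding 5 CPM, which understates changes of low genes. Genes with at least 10 CPM in either library were compared, and 2-fold was used as the limit. Intervals are exact: Poisson for levels, Clopper-Pearson for shares and conditional for ratios, the last of the CPM ratio without the added 5 CPM (scipy 1.17.1, 95%), for counting error only. Empty droplets were barcodes with 10 to 99 UMIs. The calculation was tested on simulated counts with known changes.

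All 9 members were always named; from each list of partner genes the 2 highest and 2 lowest ratios were named, and the 3 most alike genes per member. The members and lists were chosen with earlier results of these data known. RefSeq promoter sequences matched 7 of the 9 members, without Dcn and Lum. Alternatives covered filters, scaling, the added CPM, clustering resolution, free RNA, thinning, clusters from 1 library, doublets and classes from single cells.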

Additional observations from a re-analysis of the deposited data

Results flagged for a closer look

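Comparing cKO with control, Dcn had log2 ratios of 0.21, 0.25 and 0.17 in fibroblast-like clusters 4, 5 and 15 (0.41 in cluster 9) and of -0.46 in smooth muscle-like cells. These directions are opposite, and the difference between the classes was not tested. The opposition does not extend to the whole fibroblast-like class (-0.10) or to its clusters 21 and 22 (-1.04 and -1.39), and in smooth muscle-like cluster 10 the ratio was -0.00 (-0.28 to 0.27).

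Empty droplets, which entered no comparison of cells, held Dcn at 499 CPM (control) and 735 CPM (cKO), which gives a ratio of 1.47 (1.34 to 1.62). Ogn in the same droplets was at 84.6 and 197 CPM, a ratio of 2.33 (1.88 to 2.89), while the ratios of Lum, Bgn and Aspn had intervals that include 1. The libraries also differed in cell make-up. Fibroblast-like cells were 24.3% of control and 36.1% of cKO cells, smooth muscle-like cells 8.91% and 19.0%, and mesothelium-like cells 2.32% and 0.864%. Epithelium-like cells were 37.5% and 3.01%. The part of this make-up in the free RNA ratios was not tested. Among cells, the log2 ratio of Ogn was -0.32 in fibroblast-like cells (0.01 without clusters 21 and 22, 0.73 in cluster 5) and -0.31 in smooth muscle-like cells (0.17 in cluster 14). It was 0.12 (-0.05 to 0.30) in mesothelium-like and 0.41 (-0.09 to 1.05) in macrophage or monocyte-like cells, both with intervals that include no difference. In T or NK-like cells it was 1.24 (6 and 43 UMIs) and in dendritic-like cells 1.04 (9 and 33 UMIs). All of these cKO UMIs lay in at most 23 of 449 T or NK-like cells and 12 of 229 dendritic-like cells.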

How the results depend on the processing

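No paired analysis was possible because each group has 1 library, and for the same reason no replicate could be left out. The summed SLRP log2 ratio in fibroblast-like cells (-0.19) became -0.29 with median of ratios scaling and -0.22 with classes from single cells. It became -0.0095 with cells thinned to 1000 UMIs, which weighs each cell alike, and it turned positive without clusters drawn over 90% from 1 library (0.19), as the mean within clusters (0.18) and, in an alternative added after seeing the data, without cluster 21 (0.15). In smooth muscle-like cells the summed ratio (-0.52) was -0.74 with median of ratios scaling and otherwise between -0.58 and -0.49. Median of ratios scaling divides by the median CPM ratio of the genes with at least 10 CPM in both libraries. A related value, the median log2 ratio of all compared genes with 5 CPM added, was 0.10 in fibroblast-like and 0.20 in smooth muscle-like cells. Among 13 alternatives in fibroblast-like cells, the sign turned for Dcn in 4 (highest 0.28), Omd and Podn in 3, Aspn and Ogn in 2 and Lum in 1, and for Bgn, Prelp and Fmod in 0. In smooth muscle-like cells only Prelp turned, in 1 of 13 (0.64, thinned), while Lum and Bgn were past 2-fold lower in 4, Omd in 3 and Aspn in 2. Depth limits Fmod, Omd and Podn, with at most 76 UMIs for Fmod, 47 for Omd and 117 for Podn over all cells of a library. Other causes of these shifts were not tested.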
